A study of Mus musculus with 30 samples.

Results

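Short fragments of the mRNAs of 10 glial genes that are known to be expressed around amyloid plaques (Gfap, Apoe, Clu, Cst3, Ctsd, C1qa, B2m, Tyrobp, Trem2 and Cst7) were measured in small RNA sequenced by PANDORA-seq. A read was counted for a gene when its whole sequence of 20 to 45 nt was identical, in the sense direction, to an annotated protein-coding transcript of that gene and to no transcript of another gene. The 10 genes were among 21901 protein-coding genes of the reference, of which 18820 had at least 1 such read. They collected 208310 reads of 27134 distinct sequences, of which 164601 reads were 20 to 40 nt long and 23657 were 43 to 45 nt long. The 20052 reads of 41 to 42 nt lay in neither length class.

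Amyloid plaques are surrounded by reactive astrocytes, which build up the intermediate filament protein GFAP, and by microglia, which take up lipid and debris through the receptor TREM2. TREM2 has no signalling tail of its own and signals through the adaptor TYROBP, and microglia at plaques raise a set of genes for lipid carriage, lysosomal proteases, protease inhibitors and complement. Messenger RNA is broken down by nucleases, and the pieces that fall within the size range of a small RNA library are sequenced along with miRNAs, tRNA fragments and rRNA fragments.

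The tissue was the cortex, called prefrontal in the study's methods, of hemizygous 5xFAD mice (AD) and of wild-type littermates (WT), both 6 months old, of both sexes and on a C57BL/6J background. 5xFAD mice carry mutated human transgenes driven in neurons by regulatory sequence of the mouse Thy1 gene. In PANDORA-seq, AlkB removes methyl groups from RNA and T4 polynucleotide kinase repairs its ends, so that more RNA can take adapters and be copied, and it was run on 8 WT and 8 AD libraries. The traditional protocol without these enzymes was run on 7 WT and 7 AD libraries. PANDORA-seq libraries held from 44422513 to 94872662 reads of 15 to 40 nt, and a level in RPM is the number of reads per 1000000 of these.

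The genotype labels were checked first with fragments of Thy1, whose sequence takes part in the transgenes. Thy1 fragments of 20 to 40 nt, on a scale that sets each library against its other mRNA fragments (TMM, hereafter scaled RPM), ranged from 30.2 to 53.4 in 7 WT libraries and reached 223 in the library labelled WT replicate 1. They ranged from 65 to 239 in AD replicates 2, 3, 5, 6 and 8, and were 27.1, 43 and 46.8 in the libraries labelled AD replicates 1, 4 and 7. The excess in the library labelled WT replicate 1 lay in the 3′ untranslated region of Thy1, where it had 214 scaled RPM and the other WT libraries 25.4 to 45, and not in the coding sequence (5.13 against 3.08 to 8.75). The libraries labelled AD replicates 1, 4 and 7 were low in both regions, with coding levels of 1.91, 2.72 and 1.78 against 3.94 to 5.56 in the other AD libraries. On this scale these 4 libraries lay nearer the median of the other genotype than that of their own. The split depended on the scaling. AD replicate 8 had 3620 Thy1 reads in a library of 94872662 reads of 15 to 40 nt, and AD replicate 7 had 3914 in 74377694. In RPM the doubted library was therefore the higher of the pair. WT replicate 4, not doubted, had 6362 in 64141458, and AD replicate 6 had 4758 in 68081069.

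The reads of the 3′ untranslated region per coding read, a ratio that does not depend on the scaling, separated only the library labelled WT replicate 1 from its label. The ratio was 41.7 in the library labelled WT replicate 1 and 3.31 to 13.4 in the other WT libraries. It was 13.1, 14.6 and 25.1 in the libraries labelled AD replicates 1, 4 and 7 and 12.5 to 45.1 in the other AD libraries, so that the doubt about these 3 rests on the scaled level alone. The lowest AD ratio (12.5) was that of AD replicate 8, which was not doubted, and it lay inside the range of the other WT libraries. In traditional-seq, described below, 2 libraries lay nearer the other genotype. The deposited libraries of both protocols carry codes, and the labels do not say whether a shared code marks 1 mouse. By these codes the low AD libraries of traditional-seq (4.69 scaled RPM) and of PANDORA-seq replicate 4 belong together, whereas the partner of the high PANDORA-seq WT library was at 5.12 in traditional-seq, next to the midpoint between the genotype medians (5.18), the partner of PANDORA-seq AD replicate 7 was at 14.5, and the partner of the high traditional-seq WT library was at 38.4 in PANDORA-seq. The share of mRNA fragments of 43 to 45 nt, given below, was 1.58 to 3.92% in the WT and 0.175 to 1.154% in the AD libraries, and on it all 4 lay within the range of their labels, at 2.77% for WT replicate 1 and 0.586, 0.324 and 0.329% for AD replicates 1, 4 and 7. Neither measure reads the genotype directly. All comparisons below used the labels as given, and the tests between genotypes on genes and on shares of reads were repeated without the doubted libraries, a choice made after seeing the data.

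**Figure D1:**
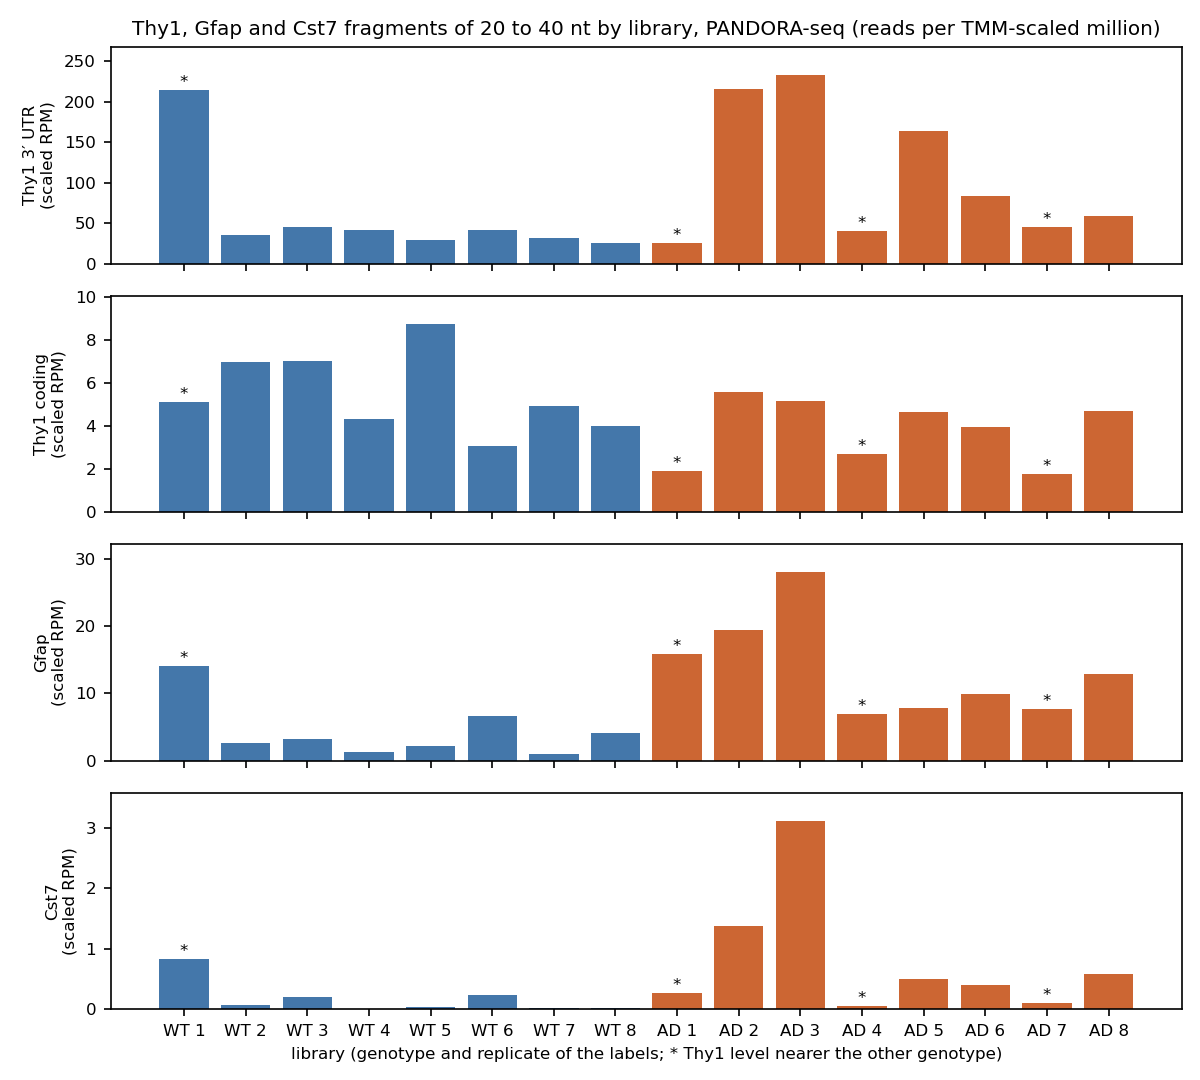
Thy1 fragments of the 3′ untranslated region and of the coding sequence, Gfap fragments and Cst7 fragments (20 to 40 nt, scaled RPM on linear axes from 0), one bar for each of 16 PANDORA-seq libraries in WT (blue) and AD (orange), with asterisks on the 4 libraries whose Thy1 level was nearer the other genotype. The library labelled WT replicate 1 was high in Thy1 3′ untranslated sequence (214), Gfap (14.1) and Cst7 (0.835), and the library labelled AD replicate 1 was low in Thy1 but not in Gfap (15.8).

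The most abundant coding fragments of 9 of the genes are shown because the bases at their ends come up again below. Trem2 (chr17:48346401-48354147, plus strand) had no such sequence above 8 reads. Each was the leading sequence of 20 to 45 nt lying within the coding sequence. Those of Clu (41 nt) and B2m (42 nt) lay in neither length class and entered no test between genotypes. Capitals mark the fragment as sequenced and lower case the 5 bases on either side in the transcript, 5′ to 3′, from GENCODE M21 (GRCm38).
Gfap: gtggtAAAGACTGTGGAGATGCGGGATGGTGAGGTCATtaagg
Apoe: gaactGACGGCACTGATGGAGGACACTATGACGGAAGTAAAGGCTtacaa
Clu: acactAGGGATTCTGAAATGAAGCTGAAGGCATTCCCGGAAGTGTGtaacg
Cst3: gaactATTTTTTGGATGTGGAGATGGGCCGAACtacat
Ctsd: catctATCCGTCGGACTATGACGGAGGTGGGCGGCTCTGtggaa
C1qa: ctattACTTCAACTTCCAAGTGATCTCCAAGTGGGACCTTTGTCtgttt
B2m: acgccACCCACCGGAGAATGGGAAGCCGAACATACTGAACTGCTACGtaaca
Tyrobp: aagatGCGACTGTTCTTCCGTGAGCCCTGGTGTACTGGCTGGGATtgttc
Cst7: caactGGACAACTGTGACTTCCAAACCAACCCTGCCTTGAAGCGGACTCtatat

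The Gfap fragment of 33 nt (330 reads) joined exons 8 and 9 of its transcript, on the minus strand at chr11:102889435-102889462 and chr11:102888717-102888721. The Apoe fragment of 40 nt (874 reads) joined exons 3 and 4, on the minus strand at chr7:19697479-19697481 and chr7:19697067-19697103, and the Cst7 fragment of 44 nt (14 reads) also crossed a splice junction, on the plus strand at chr2:150577733-150577772 and chr2:150578420-150578423. The remaining fragments each lay within 1 exon. The Clu fragment of 41 nt (1257 reads) was in exon 4 at chr14:65974861-65974901 on the plus strand. The Cst3 fragment of 28 nt (3592 reads) was in exon 2 at chr2:148872884-148872911 on the minus strand, and the Ctsd fragment of 34 nt (374 reads) was in exon 2 at chr7:142385560-142385593 on the minus strand. The C1qa fragment of 39 nt (109 reads) was in exon 3 at chr4:136896375-136896413 on the minus strand, and the Tyrobp fragment of 40 nt (78 reads) was in exon 3 at chr7:30414519-30414558 on the plus strand. The B2m fragment of 42 nt (209 reads) was in exon 2 at chr2:122150903-122150944 on the plus strand. All 9 fragments were followed by a T in the transcript, and all but that of B2m, which followed a C, were preceded by one. The leading Trem2 sequence, not shown for its few reads, was preceded and followed by a C.

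Only sense matches to spliced transcripts were counted, and antisense matches were counted apart. The 10 genes had 70 antisense reads of 20 to 40 nt against 164601 sense reads, or 0.0425 per 100. Of the antisense reads 40 fell in Cst7, at 8.95 per 100 sense reads of that gene. Of the reads placed on the displayed transcript of each gene, those that crossed a splice junction made up 13.2% in Gfap, 24.9% in Apoe, 19.7% in Cst3 and 25.6% in B2m in this length class. These were the highest shares, and the other members had from 2.79% (C1qa) to 9.90% (Clu). For Ctsd, 13577 reads, 33.9% of those that matched it, also matched the readthrough annotation Gm49369 and were left out, so its level is an underestimate. With these reads added, a choice made after seeing the data, the log2 fold change of Ctsd in AD over WT was 0.49 at 20 to 40 nt (edgeR adjusted p = 0.619) and 0.94 at 43 to 45 nt (adjusted p = 0.0176).

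Levels per kilobase of transcript spread over more than 2 orders of magnitude. In WT libraries, fragments of 20 to 40 nt of Cst3, which encodes the secreted cysteine protease inhibitor cystatin C, stood at 37.3 ± 14.5 RPM per kb (SD, n = 8). Those of Apoe, the lipid carrier of the brain made by astrocytes and by activated microglia, stood at 28.8 ± 6.62. Clu, a secreted chaperone, had 16.3 ± 4.89 RPM per kb, B2m, the light chain of MHC class I, 10.8 ± 2.74, and Ctsd, a lysosomal aspartic protease, 9.27 ± 4.45. Gfap had 2.04 ± 2.55, Tyrobp 1.85 ± 1.74 and C1qa, a subunit of the complement initiator C1q, 1.26 ± 0.631. Cst7, which encodes cystatin F, an inhibitor of lysosomal cysteine proteases, was at 0.232 ± 0.436 and Trem2 at 0.184 ± 0.186 RPM per kb. Neighbours in this order differed by less than the larger of their SDs, except for Apoe above Clu, Clu above B2m, Ctsd above Gfap and C1qa above Cst7. In AD libraries the order of the 10 means was the same, with Gfap at 4.22 ± 1.54, Tyrobp at 2.88 ± 1.6 and Cst7 at 0.603 ± 0.594 RPM per kb.

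The question of the main comparison was whether the fragment levels of these genes differed between AD and WT cortex. At 20 to 40 nt the groups of all 10 members overlapped over the 16 libraries, least so for Gfap. Gfap ranged from 1.53 to 21.6 RPM in WT libraries with a median of 2.55, and from 7.58 to 19 in AD libraries with a median of 9.81. All 8 AD libraries lay above 7 of the 8 WT libraries, whose highest was 6.34, and the library labelled WT replicate 1 was above every AD library. On the scaled levels Gfap was 1.62 ± 0.47 (log2 fold change ± SE) higher in AD, with an unadjusted p of 0.00306 and an adjusted p of 0.618 (edgeR quasi-likelihood test).

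Trem2, its adaptor Tyrobp and Cst7, genes of microglia in the brain, had the lowest levels in RPM not divided by length. Cst7 ranged from 0 to 1.28 RPM in WT libraries with a median of 0.0748, and from 0.0563 to 1.55 in AD libraries with a median of 0.323. The count was 0 in WT replicate 4, where 3 reads would have been 0.0468 RPM. Only the library labelled WT replicate 1, with 79 reads, was above 15 reads among WT libraries, while 5 of the 8 AD libraries exceeded every other WT library.

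Tyrobp ranged from 0.495 to 3.62 RPM in WT libraries (median 0.747) and from 0.686 to 3.28 in AD libraries (median 1.31). Trem2 itself ranged from 0.0243 to 0.679 RPM in WT libraries (median 0.155) and from 0.0949 to 0.717 in AD libraries (median 0.241), which came from 2 to 61 reads a library. The library labelled WT replicate 1 was the highest WT library for both, and 6 AD libraries for Tyrobp and 5 for Trem2 were above all other WT libraries. Log2 fold changes on the scaled levels were 2.1 ± 0.89 for Cst7, 1.22 ± 0.47 for Tyrobp and 1.1 ± 0.55 for Trem2, with adjusted p of 0.618, 0.618 and 0.627.

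C1qa ranged from 0.630 to 2.73 RPM in WT libraries (median 1.20) and from 1 to 2.83 in AD libraries (median 1.58). Its groups overlapped, with 7 of 8 AD libraries above the WT median, and its log2 fold change was 0.83 ± 0.37 (adjusted p = 0.618). B2m ranged from 6.35 to 14.1 RPM in WT and from 4.16 to 16.6 in AD libraries, and 3 of 8 AD libraries lay above the WT median in RPM and 7 of 8 in scaled RPM. Its log2 fold change was 0.24 ± 0.37 (adjusted p = 0.848).

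The abundant secreted and lysosomal members overlapped between genotypes. Apoe had 28.4 to 56.6 RPM in WT libraries (median 41.3) and 23.3 to 92.1 in AD libraries (median 45.5), and Cst3 had 19.1 to 55.6 (median 30.6) and 14.2 to 75.5 (median 31.5). Clu had 14.6 to 40.1 RPM in WT libraries (median 29.6) and 14 to 45.9 in AD libraries (median 25.3), with 1 AD library above the WT median in RPM and 6 in scaled RPM. Ctsd had 9.94 to 36.8 RPM in WT and 9.99 to 31 in AD libraries, with medians of 16.7 and 16.5. On the scaled levels their log2 fold changes were 0.46 ± 0.35 for Apoe, 0.53 ± 0.27 for Cst3, 0.51 ± 0.25 for Ctsd and 0.11 ± 0.18 for Clu, with adjusted p from 0.627 to 0.859.

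**Figure D2:**
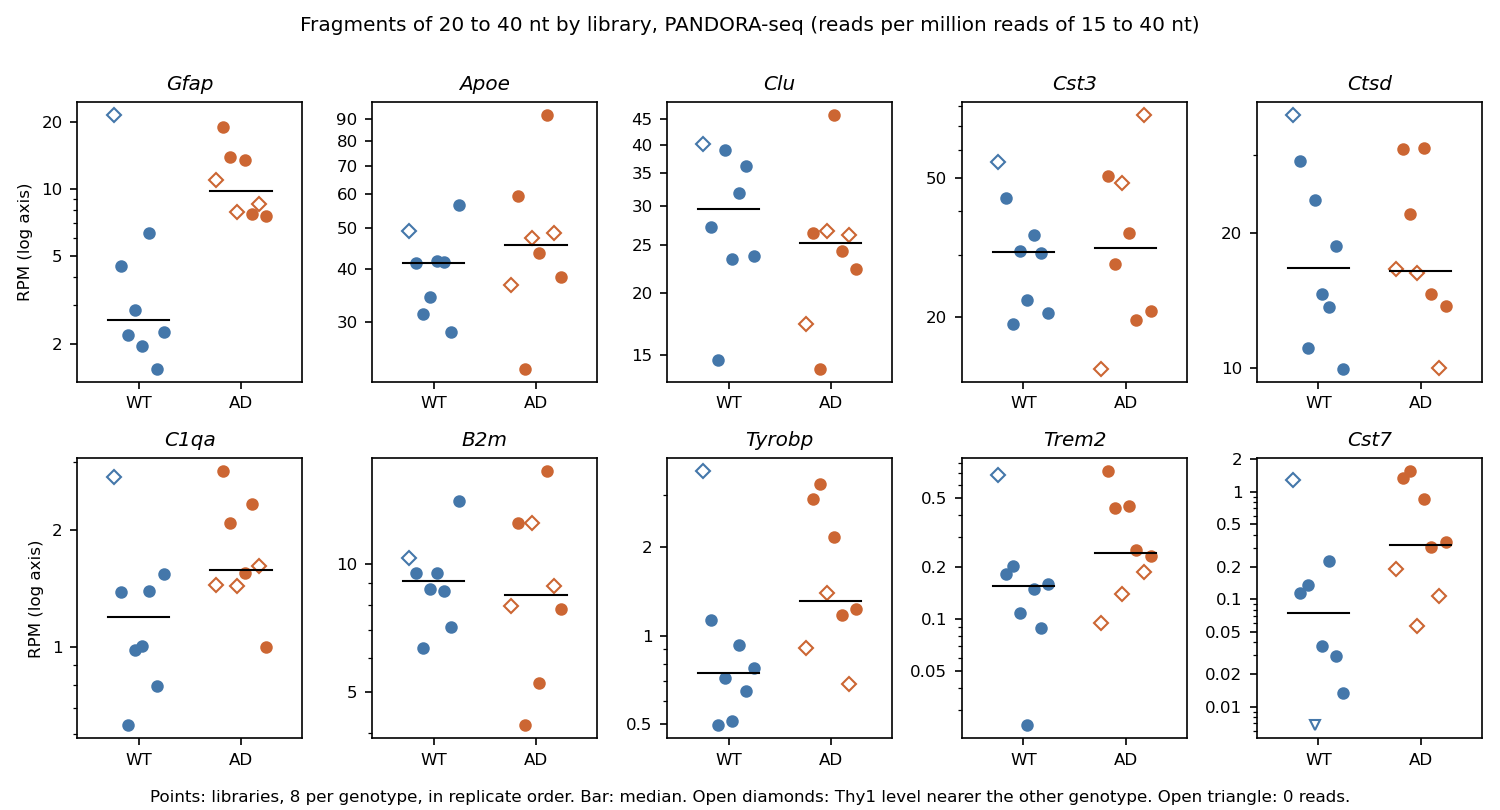
Levels of the 10 genes at 20 to 40 nt in RPM on log axes, one point for each of 8 WT (blue) and 8 AD (orange) PANDORA-seq libraries, with the median as a bar, open diamonds for the 4 libraries whose Thy1 level was nearer the other genotype and an open triangle for 0 reads. The filled AD points lie above the filled WT points for Gfap, Tyrobp, Trem2 and Cst7, and the filled points overlap for Apoe, Clu, Cst3, Ctsd, C1qa and B2m. Which points are filled was decided after seeing the data, and in scaled RPM only Gfap and Cst7 separate in this way. With the open points included, the groups of all 10 genes overlap.

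Of the 12959 genes tested at 20 to 40 nt, 0 passed an adjusted p of 0.05 with edgeR (0.0% higher in AD), and edgeR's likelihood ratio test and DESeq2 also called 0. Unadjusted p values under 0.05 were found for 1038 genes (1052 by the likelihood ratio test and 1209 by DESeq2), with 5.64% of all genes higher and 2.37% lower in AD. Of the 10 members, 4 were higher at an unadjusted p under 0.05: Gfap, C1qa, Tyrobp and Cst7. The log2 fold change was above 0 for all 10 members, with a median of 0.68, and for 50.3% of all genes, with a median of 0.00. In RPM, without TMM, the median of all genes was -0.42, and 8 of the 10 members were above 0. On that scale Clu (-0.22) and Ctsd (-0.02) turned below 0, Gfap was at 1.05 and Cst7 at 1.38, and both of these were among the 0.995% of genes that were higher at an unadjusted p under 0.05. Adjusted calls on that scale made up 0.054% of genes and held none of the members.

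The 4 libraries singled out by Thy1 changed these values. Without the library labelled WT replicate 1, the log2 fold change was 2.19 ± 0.41 for Gfap, 3.38 ± 0.91 for Cst7, 1.61 ± 0.45 for Tyrobp and 1.54 ± 0.57 for Trem2. Then 7 of the 10 members were higher at an unadjusted p under 0.05, as were 5.56% of all genes, and 0 genes passed the adjusted p. Without AD replicate 3, the library with the highest Thy1 level, the values were lower, at 1.38 for Gfap, 1.39 for Cst7, 0.757 for Tyrobp and 0.843 for Trem2, and these were the lowest over the 16 fits that left out 1 library. Gfap was the gene whose 8 AD libraries all lay above the 7 remaining WT libraries in RPM (0.00768% of genes), whereas over all 16 libraries 0.0% of genes had such groups.

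Without all 4 libraries, Gfap was 2.39 ± 0.44, Cst7 3.98 ± 0.80, Tyrobp 2 ± 0.44 and Trem2 2 ± 0.56 higher on the log2 scale. The 5 AD libraries then lay above the 7 WT libraries in RPM for 4 genes of 13110 tested (0.0305%), and these 4 were Gfap, Tyrobp, Trem2 and Cst7. Their lowest AD levels were 7.58, 1.18, 0.232 and 0.308 RPM, beside highest WT levels of 6.34, 1.13, 0.203 and 0.225. This separation is not independent of the choice of libraries. The library labelled WT replicate 1, left out here, had the highest WT level of all 4 genes. The AD libraries left out included the lowest for Tyrobp (0.686 RPM), Trem2 (0.0949) and Cst7 (0.0563), though not for Gfap. On scaled RPM the groups did not overlap for 9 genes (0.0686%), among them Gfap and Cst7. With that scale, the same count was 5 genes (0.0384%) without the library labelled WT replicate 1 and 2 genes (0.0154%) with all libraries, among them Gfap in the first case and no member in the second. Of the members, 6 were higher at an unadjusted p under 0.05 (1.27% of genes), and no gene passed the adjusted p (0.0%), with values of 0.660 for Gfap and 0.944 for Cst7. In RPM without TMM, Cst7 was called at 3.48 (edgeR adjusted p = 1.08e-05), as 1 of 5 genes called higher (0.0381%), beside 15 called lower. Like the separation, this call is not independent of the choice of libraries. The library labelled WT replicate 1 held 79 of the 114 WT reads of Cst7, and the AD libraries left out were the lowest for it.

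Fragments of 43 to 45 nt were kept apart because their number differed between genotypes in the libraries as a whole, so that the test of that number below is not independent evidence of the difference. The AD mean of the sum over the 10 genes was 0.946 to 1.37 times the WT mean at each length up to 41 nt, highest at 28 nt and 34 nt (1.33), and lower beyond, at 0.818 for 42 nt, 0.681 for 43 nt, 0.438 for 44 nt and 0.301 for 45 nt. The sum at 28 nt included the Cst3 fragment shown above, with means of 1.87 RPM in WT and 4.43 in AD libraries. The AD median of that fragment was 2.45 RPM and its highest AD level 17.1. At 45 nt the 10 genes had 7.76 ± 2.47 RPM in WT and 2.34 ± 1.27 RPM in AD libraries (SD, n = 8). Over all protein-coding genes, 43 to 45 nt fragments came to 2.76 ± 0.764% of the reads of 15 to 40 nt in WT and 0.562 ± 0.359% in AD libraries (p = 0.0001554, the smallest that the exact two-sided permutation test over 12870 splits can give, adjusted p = 0.0002331). The share of 20 to 40 nt fragments was 10.8 ± 3.47% in WT and 8.39 ± 2.77% in AD libraries (exact permutation p = 0.143). Without the 4 libraries of the Thy1 check the exact permutation p was 0.00253 for the longer and 0.271 for the shorter fragments.

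**Figure D3:**
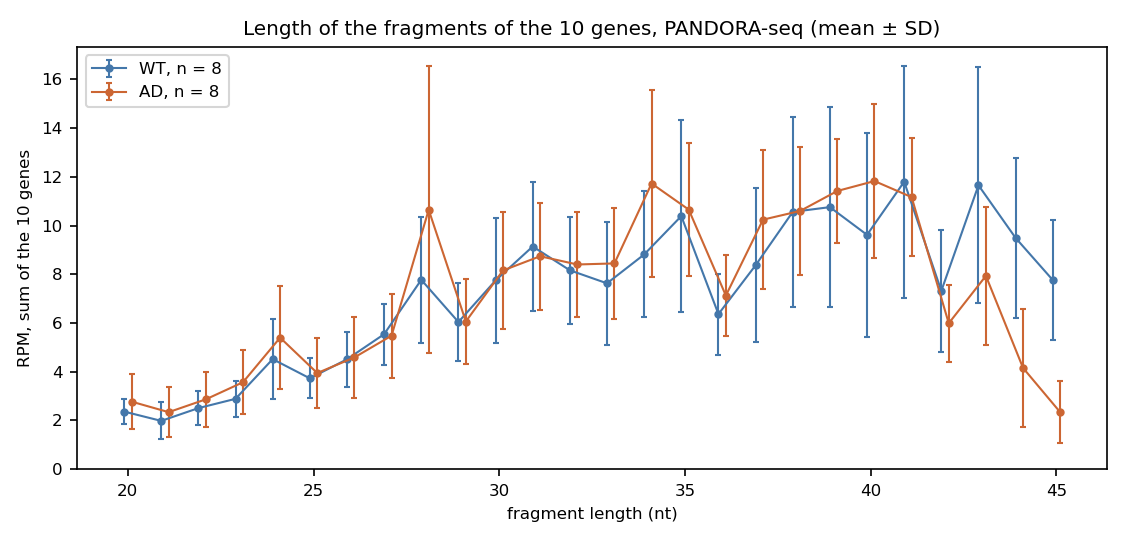
Length of the fragments of the 10 genes, with fragment length in nt against their summed RPM, as mean ± SD of 8 WT (blue) and 8 AD (orange) PANDORA-seq libraries. The AD mean is above the WT mean at 28 nt (10.6 against 7.77 RPM) and at 34 nt (11.7 against 8.81), and below it from 41 nt on, falling from 7.93 RPM at 43 nt to 2.34 at 45 nt. At 28 nt the means include a single Cst3 sequence with 4.43 RPM in AD and 1.87 in WT libraries.

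Long fragments were fewer per short fragment in AD for the members and for mRNA as a whole. All protein-coding genes together had 26.5 ± 7.30 long fragments per 100 short ones in WT and 6.82 ± 4.11 in AD libraries, a ratio of 3.88. The ratio was 1.73 for Cst3 (23.1 ± 8.24 in WT and 13.3 ± 5.09 in AD), 1.95 for Ctsd, 2.33 for Clu, 2.34 for Apoe, 3.1 for Gfap and 3.36 for B2m. For Trem2 and Cst7 the WT values had SDs above their means (25.2 ± 33.1 and 27.3 ± 29.1). Whether a member's ratio differs from that of all genes was not tested.

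Relative to the other mRNA fragments of 43 to 45 nt, 5 of the 6 members that could be tested were higher in AD. C1qa, Tyrobp, Trem2 and Cst7 were under the filter on low counts. Cst3 was 1.74 ± 0.37 higher (log2 fold change ± SE, adjusted p = 0.0104), Gfap 1.72 ± 0.44 (0.0204), Ctsd 1.31 ± 0.25 (0.0069), Apoe 1.03 ± 0.33 (0.0463) and Clu 0.74 ± 0.21 (0.0312), by the edgeR quasi-likelihood test. B2m was at 0.26 ± 0.38 (adjusted p = 0.688). Of the 8788 genes tested, 552 (6.28%) were called higher and 428 (4.87%) lower in AD.

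The scaled levels show which libraries carried these calls. Scaled RPM of Ctsd ranged from 1.08 to 2.11 in WT and from 1.95 to 8.37 in AD libraries, and 7 of 8 AD libraries were above every WT library. Cst3 ranged from 1.28 to 5.09 in WT and from 3.35 to 26.5 in AD libraries, with 6 AD libraries above every WT library. Gfap ranged from 0.146 to 1.91 in WT and from 0.980 to 3.86 in AD libraries. All 8 AD libraries exceeded the 7 WT libraries other than the one labelled replicate 1, whose highest was 0.810. Clu had 2.32 to 5.64 and 3.54 to 9.53 scaled RPM, and Apoe 1.06 to 7.88 and 3.29 to 10.4, so both overlapped.

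In RPM the log2 fold changes of the same 6 members were below 0. With library size alone, 4 genes were called higher and 8492 lower (96.6% of those tested), and the median over all genes was -2.09. Gfap was at -0.54, Cst3 at -0.72, Apoe at -0.90, Ctsd at -1.02, Clu at -1.38 and B2m at -1.56, and the last 3 were called lower (adjusted p of 0.0312, 0.00484 and 0.00174). In RPM, Clu ranged from 5.07 to 10.7 in WT and from 0.633 to 5.21 in AD libraries, and no AD library lay above the WT median. All 6 members stood above the median of all genes on either scale. Both scales use the same reads and libraries, so the second is not a separate check.

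Calls at 43 to 45 nt depended on the libraries included. Without the 4 libraries singled out by Thy1, 0 of 9780 genes were called (0.0% higher), 1732 had an unadjusted p under 0.05 and 8.87% were higher at that threshold. Gfap was then at 2.40 and Ctsd at 1.5 (adjusted p = 0.069 for both), Cst3 at 1.42 (0.108), Apoe at 1.05 (0.197) and Clu at 0.56 (0.213). C1qa at 1.80 (adjusted p = 0.170) and Tyrobp at 1.78 (0.124) passed the filter in that fit. With each of 16 libraries left out in turn, Gfap, Cst3 and Ctsd were called in 16 of 16 fits, Clu in 9 and Apoe in 3. C1qa and Tyrobp passed the filter in 9 of these fits each, and C1qa was called in 1, without AD replicate 5 (adjusted p = 0.0324), and Tyrobp in 0. Clu missed the threshold without WT replicates 2, 3, 4 or 7 or AD replicates 2, 4 or 7 (log2 fold changes from 0.60 to 0.72, adjusted p from 0.053 to 0.0679), and Apoe passed it only without WT replicate 8, AD replicate 1 or AD replicate 5 (adjusted p elsewhere from 0.0558 to 0.0911). Other settings also ended calls. Clu was not called with the looser filter (adjusted p = 0.0663) or distinct sequences counted once (0.065), Apoe not with the looser filter (0.0675) and Cst3 not with distinct sequences (0.121). The log2 fold change of Cst3 fell to 0.57 with distinct sequences, while those of Clu (0.51 to 0.64) and Apoe (0.94) moved less.

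**Figure D4:**
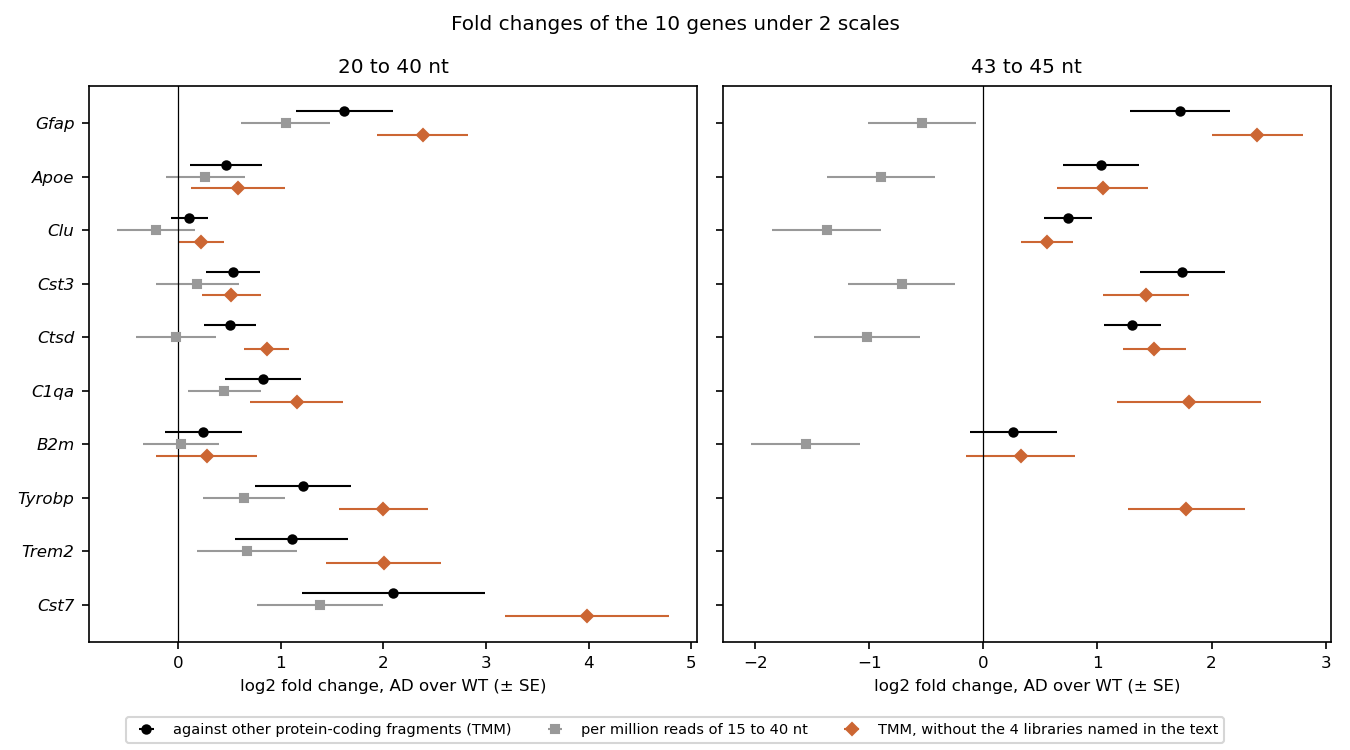
Log2 fold changes of AD over WT ± SE for each gene at 20 to 40 nt (left) and 43 to 45 nt (right), against other protein-coding fragments (black circles), in RPM (grey squares) and against other fragments without the 4 libraries of the Thy1 check (orange diamonds). At 43 to 45 nt the values in RPM are below 0 for all 6 genes (-1.56 to -0.54) and the values against other fragments are above 0 (0.26 to 1.74).

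Traditional-seq held far fewer of these fragments and none over 42 nt, so it was tested at 20 to 40 nt for the 6 members that passed the filter. Ctsd ranged from 0.276 to 3.30 RPM in WT libraries (median 0.717) and from 0.803 to 3.35 in AD libraries (median 2.12), and was 1.17 ± 0.39 higher on the log2 scale (unadjusted p = 0.00579, adjusted p = 0.999). Gfap ranged from 0.282 to 8.03 RPM in WT (median 0.896) and from 1.17 to 6.35 in AD libraries (median 2.37), with 7 of 7 AD libraries above the WT median and a log2 fold change of 0.68 ± 0.35 (adjusted p = 0.999). Apoe, Clu, Cst3 and B2m were at 0.08, -0.01, 0.15 and 0.38. Of 3199 genes tested, 1 was called higher (0.0313%), which was Thy1 at 1.46 ± 0.27 (adjusted p = 0.0261, where in PANDORA-seq Thy1 was at 0.81 ± 0.50 with an adjusted p of 0.646 at 20 to 40 nt and at 0.55 with one of 0.332 at 43 to 45 nt), and 2.0% were higher at an unadjusted p under 0.05, among them 1 member.

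In traditional-seq, too, the Thy1 level of some libraries lay nearer the other genotype. It was 7.15 scaled RPM in the library labelled WT replicate 5, against 2.22 to 5.12 in the other WT libraries, and 4.69 in the library labelled AD replicate 3, against 8.80 to 14.5 in the other AD libraries. The library labelled WT replicate 5 was also the highest WT library in RPM for all 6 members tested, and it had the highest share of mRNA fragments (3.08% of reads, against 0.79 to 2.10% in the other WT libraries). In scaled RPM it was the highest WT library for Gfap (3.69) and Ctsd (1.52) and not for the other 4. Without these 2 libraries Ctsd was at 1.64 (adjusted p = 0.188) and Gfap at 1.25 (adjusted p = 0.234), and these 2 members were among the 2.26% of genes that were higher at an unadjusted p under 0.05.

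Fragments did not cover the mRNAs evenly, and their places were shared by both genotypes. At 20 to 40 nt, 54.1% of Gfap reads lay in the coding sequence, which is 48.8% of the transcript of 2648 nt, and 42.9% in the 3′ untranslated region. Apoe reads lay mainly in the coding sequence (75.4% of reads, 66.5% of length). In Clu, 35.0% of reads fell in a 3′ untranslated region that is 12.7% of the transcript. In Ctsd 63.0% did so, in 31.0% of the length, although part of its coding sequence could not be counted. The coding share of Cst3 was 56.1 ± 10.1% in WT and 67.0 ± 11.1% in AD libraries (SD, n = 8), which overlapped, while that of Gfap was 53.6 ± 5.59% and 54.6 ± 4.95%.

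The most abundant sequence took 2.29% (Clu) to 12.8% (Cst7) of the reads of a gene at 20 to 40 nt. At 43 to 45 nt it took 7.42% (Ctsd) to 29.1% (Cst3). The Cst3 fragment of 28 nt shown above was 7.35% of all reads of Cst3, with 0.858 to 4 RPM in WT libraries (median 1.33) and 0.917 to 17.1 in AD libraries (median 2.45). The Gfap fragment shown above had 0.0122 to 0.598 RPM in WT libraries (median 0.0509) and 0.0105 to 1.05 in AD libraries (median 0.216), with overlap. Without the most abundant sequence of each gene, the log2 fold changes at 43 to 45 nt were 1.45 for Cst3, 1.81 for Gfap and 0.61 for Clu, and Clu no longer passed the threshold (adjusted p = 0.0557).

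**Figure D5:**
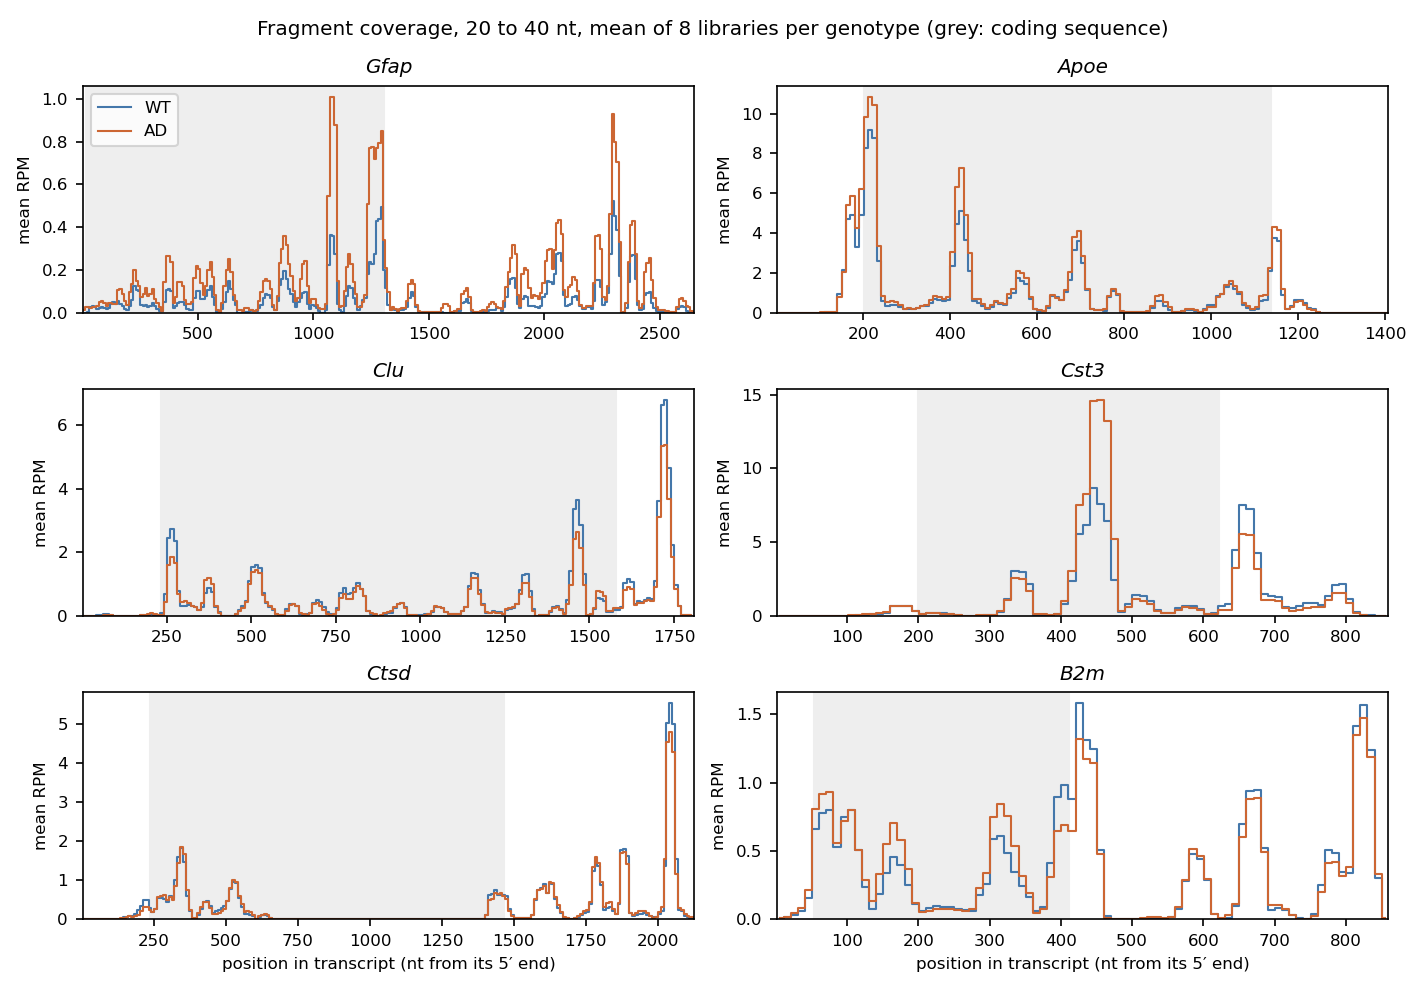
Coverage by fragments of 20 to 40 nt along the transcripts of Gfap, Apoe, Clu, Cst3, Ctsd and B2m, with position in nt from the 5′ end against mean RPM of 8 WT (blue) and 8 AD (orange) libraries, and the coding sequence shaded grey. Peaks stand at the same places in both genotypes, AD is above WT along most of Gfap, and the gap in Ctsd is where reads shared with Gm49369 were left out.

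The ends of the fragments had a base preference, counted over both genotypes together except where WT and AD are named. In the 10 genes the base just before the 5′ end was a pyrimidine (C or U) in 82.2% of reads of 20 to 40 nt, and the base just after the 3′ end was one in 85.4%, whereas pyrimidines made up 49.2% of the bases of these transcripts. A was the first base of 47.1% of reads and 23.4% of transcript bases. The 5′ end fell between a pyrimidine and an A in 40.8% of reads, against 10.8% of the adjacent base pairs in the transcripts. This share was 38.4 ± 2.74% in WT and 41 ± 8.19% in AD libraries (SD, n = 8). It was highest in Cst3 (56.6%), B2m (53.9%) and Gfap (53.2%) and lowest in Tyrobp (27.4%). In 77986076 reads of other protein-coding genes it was 46.7%, and in mitochondrial genes, counted apart, 50.1%. These counts did not hold all reads of the other protein-coding genes. Over distinct sequences of the 10 genes the share was 28.8%. The 3′ end fell at such a step in 3.42% of reads.

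Other genes of the same cells were read as lists beside the members. Of 46 microglial, lysosomal and complement genes, 44 were tested at 20 to 40 nt, 41 had a log2 fold change above 0, and the median was 0.51. At an unadjusted p under 0.05, 15 were higher (5.64% of all genes were), and 0 passed the adjusted p. The list also holds genes of homeostatic microglia, which are known to be lower in microglia at plaques, among them P2ry12 (-0.09), Tmem119 (0.05), Cx3cr1 (0.67), Olfml3 (0.62), Gpr34 (0.69) and Fcrls (0.89). Of 9 genes of reactive astrocytes 8 were above 0 and 6 were higher at an unadjusted p under 0.05, with a median of 0.80. Of 12 general astrocyte genes 10 were above 0 and 5 were higher at that threshold, with a median of 0.40. Both MHC class I genes were above 0, with a median of 0.40. These counts depended on the scale. In RPM, 29 of the 44 microglial genes were above 0, their median was 0.16, and 0 were higher at an unadjusted p under 0.05 (0.995% of all genes were). On that scale 2 of the 9 reactive astrocyte genes (median 0.44) and 1 of the 12 general astrocyte genes (median 0.08) were higher at that threshold.

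At 43 to 45 nt and relative to other fragments, 5 of 27 microglial genes tested were called higher and 1 lower, where all genes had 6.28% and 4.87%. Higher were Cd9 (1.69), a tetraspanin, Grn (1.27), which encodes the lysosomal protein progranulin, Lgals3bp (1.21), the chemokine receptor gene Cx3cr1 (1.18) and Csf1r (1.12), the receptor on which microglia depend, with adjusted p from 0.0069 to 0.0493. Fth1, which encodes ferritin heavy chain and is expressed by many cell types, was lower (-0.97, adjusted p = 0.0339). Of 4 reactive astrocyte genes tested Vim (1.52) and Igfbp5 (0.56) were higher, and of 12 general astrocyte genes S100b (1.04), Slc1a3 (0.88) and Aqp4 (1.16). In RPM none of these was higher in AD, and without the 4 libraries of the Thy1 check none passed the adjusted p.

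Markers of other cell types, like all genes, had no call at 20 to 40 nt, and their values are given beside those of the members. At an unadjusted p under 0.05, 2 of the endothelial markers were higher and 1 neuronal marker was lower. All 9 neuronal markers were below 0 at 20 to 40 nt, with a median of -0.35, and their summed level was 513 to 787 scaled RPM in WT and 238 to 813 in AD libraries. All 6 oligodendrocyte markers were above 0, with a median of 0.49 and sums of 57.2 to 168 in WT and 50.1 to 284 in AD libraries, and at 43 to 45 nt Mag (1.69) and Cnp (1.49) were called higher and the neuronal Gad1 lower (-0.53). All 4 endothelial markers were above 0 (median 0.91), 3 of 5 blood genes were (median 0.00), and so were both testable choroid plexus genes (median 0.39). Without the 4 libraries of the Thy1 check, the medians were 0.64 for the microglial genes, 0.70 for the reactive astrocyte genes, -0.05 for neurons, 0.35 for oligodendrocytes, -0.10 for endothelium, -0.44 for blood and 0.22 for choroid plexus. The part of these cell types in the levels of the 10 genes was not tested, and in bulk tissue more cells of a type and more RNA per cell cannot be told apart.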

How the data were processed

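Small RNA of 15 to 50 nt was isolated from gels and sequenced in 30 libraries. The authors deposited 1 table per library that lists distinct sequences, already without adapters, with their length and read counts, neither normalized nor annotated. The submitters' processing notes name mm39. The files hold no coordinates, and sequences were matched here to transcripts of GENCODE M21 (GRCm38), with whole, exact, sense matches only (a program built with g++ 11.4.0 and Python 3.11.15). Of 1000 simulated fragments 970 were assigned, 30 matched several genes and 0 went to a wrong gene, and 0 of 1000 with 1 mismatch were assigned. Genes whose reads match several genes are undercounted.

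Groups follow the labels. Reads were summed per gene over all protein-coding genes and tested with edgeR 4.0.16 (R 4.3.3): TMM on library sizes of 15 to 40 nt, filterByExpr (10, 15), the quasi-likelihood test, Benjamini-Hochberg adjustment over all genes tested, and a call at an adjusted p under 0.05. In simulated data of 13116 genes (20 to 40 nt, PANDORA-seq), 190 of 190 testable genes changed 4-fold were called, with 5 unchanged ones. The simulation gave every gene the same dispersion (0.142) and no shift in composition beyond the changed genes. It therefore does not give the power of the real fits. In the real fit Cst7, at 4.28-fold, had an adjusted p of 0.618 (edgeR quasi-likelihood test). The design planned the quasi-likelihood test where the study used the likelihood ratio test. The study counts each library of a protocol as 1 mouse. Reads carry no molecular identifiers. Tmem38b and Lars2 took 9.73 to 49.0% of the assigned reads of a library (median 29.2%), and the shares were not recomputed without them. Same-numbered libraries did not deviate together (correlations from -0.295 to 0.419 in PANDORA-seq and from -0.086 to 0.103 in traditional-seq), so they were not treated as pairs.

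The 10 members, the gene lists and the tests were chosen with earlier results of these data known. Named were the members and list genes that were called. Thy1, Gm49369, Tmem38b and Lars2 are named as checks, and the homeostatic microglial genes were chosen after their values were seen. Alternatives were the likelihood ratio test, DESeq2 1.42.0, other scalings and filters, a replicate block, distinct sequences, 25 to 40 nt, a fold change over 2 and each library left out. Chosen after seeing the data were the fits without libraries whose Thy1 level is nearer the other genotype and those with the reads that Ctsd shares with Gm49369.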

Additional observations from a re-analysis of the deposited data

Results flagged for a closer look

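Among 60 groups of levels examined (each gene and genotype in each protocol and length class), 19 held a highest or lowest library whose gap to its nearest neighbour, divided by the range of the group, exceeded Dixon's 95% critical value. Chance gives about 3 in independent groups of normally distributed values. The groups here share libraries and some levels rest on few reads, so the 2 counts are not a test. The library labelled WT replicate 1 of PANDORA-seq accounted for 9 of them. At 20 to 40 nt it had 21.6 RPM of Gfap (other WT libraries 1.53 to 6.34), 2.73 of C1qa (0.630 to 1.54), 3.62 of Tyrobp (0.495 to 1.13), 0.679 of Trem2 (0.0243 to 0.203) and 1.28 of Cst7 (0 to 0.225). At 43 to 45 nt it had 5.17 RPM of Gfap (0.486 to 1.51), 1.05 of Tyrobp (0.0730 to 0.315), 0.145 of Trem2 (0 to 0.0675) and 0.453 of Cst7 (0 to 0.0900). The same library had 223 scaled RPM of Thy1, where the other WT libraries had 30.2 to 53.4.

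The library labelled WT replicate 5 of traditional-seq accounted for 5, with 8.03 RPM of Gfap (other WT libraries 0.282 to 3.08), 3.30 of Ctsd (0.276 to 1.29), 0.761 of Tyrobp (0 to 0.269), 0.0845 of Trem2 (0 in the others) and 0.254 of Cst7 (0 to 0.0994). The Trem2 value is 1 read in 1 of 7 libraries, so its gap fills the range by construction, and the Cst7 value is 3 reads. Its Thy1 level was 7.15 scaled RPM. The library also had the highest share of mRNA fragments of the traditional-seq libraries (3.08% of reads), and in scaled RPM its Gfap level was 3.69, where the next WT library had 2.27.

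The remaining 5 were in AD libraries. In PANDORA-seq, AD replicate 5 had 45.9 RPM of Clu at 20 to 40 nt (others 14 to 26.7), and AD replicate 6 had 9.33 RPM of Apoe (1.07 to 4.05) and 2.79 RPM of B2m (0.115 to 0.816) at 43 to 45 nt. In traditional-seq, AD replicate 1 had 2.59 RPM of B2m (0.484 to 1.29) and AD replicate 5 had 0.490 RPM of Trem2 (0 to 0.194).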

How the results depend on the processing

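At 20 to 40 nt, 0 genes were called except with library size alone (7 higher) and with that scale and without the 4 libraries of the Thy1 check (5 higher and 15 lower). Clu turned to -0.22 and -0.0739 and Ctsd to -0.0225 under these scales, where the median of all genes also moved down. At 43 to 45 nt, where 552 genes were higher and 428 lower, the counts were 845 and 700 with the likelihood ratio test, 861 and 752 with DESeq2, 324 and 194 with distinct sequences, 334 and 124 with a fold change over 2, 4 and 8492 with library size alone, 0 and 0 without the 4 libraries, and 1 and 8652 without them and with library size alone. Members below 0 there with library size alone were Gfap (-0.54), Apoe (-0.90), Clu (-1.38), Cst3 (-0.72), Ctsd (-1.02) and B2m (-1.56). On that scale and without the 4 libraries they were Apoe (-0.57), Clu (-1.21), Cst3 (-0.77), Ctsd (-0.71), B2m (-1.24), C1qa (-0.21) and Tyrobp (-0.20). The replicate block gave 236 and 217 at 43 to 45 nt, with Clu no longer called (adjusted p = 0.0644), left the counts at 20 to 40 nt at 0 and in traditional-seq at 1, and same-numbered libraries shared no more than a number.

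With 1 library left out, counts at 43 to 45 nt ran from 227 to 824 higher and from 162 to 685 lower, and B2m from -0.095 to 0.651. The lowest counts came without WT replicate 4. The log2 ratio of AD to WT ran from -0.509 to -0.252 for the share of 20 to 40 nt fragments, which passed an unadjusted p of 0.05 without AD replicate 5 alone, from -2.53 to -2.16 for that of 43 to 45 nt and from -2.23 to -1.82 for their ratio.

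In traditional-seq the 1 gene called higher became 2 with the likelihood ratio test and with DESeq2 and 0 with library size alone and at 25 to 40 nt, and 0 to 1 with 1 library left out. Apoe was at -0.11 with library size alone, and Clu at -0.48 at 25 to 40 nt, 0.0107 with the stricter filter, 0.0285 with the block and 0.0335 without the 2 libraries. With 1 library left out, Apoe ran from -0.063 to 0.190, B2m from -0.045 to 0.525, Clu from -0.075 to 0.050 and Cst3 from -0.057 to 0.275. The cause of these changes was not tested. Trem2 and Cst7 rested on medians of 9.5 and 4.5 reads in WT PANDORA-seq libraries at 20 to 40 nt, and in traditional-seq C1qa, Tyrobp, Trem2 and Cst7 were under the filter on low counts.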
